A study of Homo sapiens with 11 samples.

Results

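The HOX genes encode homeodomain transcription factors and lie in 4 clusters, HOXA, HOXB, HOXC and HOXD. CTCF sites were described here around 38 of these genes, taken by name, in windows that ran from 100 kb below the outermost listed gene of each cluster to 100 kb above it (genome build hg38). The windows held 45 of 34769 CTCF sites in all, a site being a set of summits, from any of the 3 CTCF lists, that follow one another within 500 bp. A summit is the base at which a called peak is highest. CTCF was mapped by CUT&RUN, in which a nuclease brought to an antibody cuts out the DNA around the bound protein.

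All cells were HCT116 p53-/-, a human colorectal cancer line from which p53 has been removed, so every genotype lacked p53. The groups were WT (that line without further change), ORC2 deletion, a single CRISPR/Cas9 clone of it, and ORC2 rescue, clonally selected cells in which ORC2 had been put back on the plasmid pLHCX. ORC2 is a subunit of the origin recognition complex. Each genotype had 2 CTCF libraries, and there were IgG libraries too, 2 each for WT and deletion and 1 for rescue. The authors deposited 1 summit list per genotype and antibody, without naming replicates, so differences between genotypes cannot be set against a spread between replicates, and no p-value is given. Over the whole genome the lists had 19044 (WT), 31112 (deletion) and 20810 (rescue) CTCF summits, and library depth is unknown. The value of a summit is the −log10 of the authors' q. It is not scaled between lists, so each summit is also placed by its rank within its own list, where rank 1 is the highest value.

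HOX genes specify position along the body axis, and within a cluster the gene order follows the order of the body regions in which the genes act. Paralogues with low numbers act toward the head end, and those numbered 9 to 13 act toward the tail end, which includes the hindgut. CTCF, a zinc finger protein, stops the loop-extruding cohesin ring, and its sites inside HOX clusters are known as borders between active chromatin and chromatin silenced by Polycomb.

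Promoter sequence was available for 20 of the 38 genes, as 27 windows of 300 bases, each from 250 bases before to 50 after a gene start (RefSeq, GRCh38.p14). They were searched on both strands for a CTCF core motif, that is CC, 3 free bases, AG, 2 free bases and GGC, 12 bases in all. HOXC4 and HOXC5 share a window, so 26 are distinct, and 7 belong to HOXA3. A match was found in 4 of the 27 windows (14.8%, 95% Wilson interval 5.92 to 32.5), against 10.6% of all 35116 promoter windows. Counted once each, it was 4 of 26 (15.4%, 6.15 to 33.5), against 10.6% of 34943. Among all promoter windows, the match was present in 9.58% of those with no summit, in 20.4% of those with a summit in 1 list, in 30.6% with a summit in 2 lists and in 37.7% with a summit in 3. The 4 stretches are shown because 1 of them lies among CTCF summits and the other 3 do not. Capitals mark the match, and each runs 5′ to 3′ on the strand of its gene.

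HOXA10 (chr7:27179897-27179926, minus strand): gcgcagccgCCACGAGATGGCgcacttccg

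HOXA11 (chr7:27185399-27185428, minus strand): tgttgcttcCCCTGAGGTGGCtacaaagaa

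HOXD10 (chr2:176116671-176116700, plus strand): gcacgtgacCCGAGAGGAGGCtgcggctca

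HOXD1 (chr2:176188418-176188447, plus strand): cctgtCCGAGAGCAGGCgttctgccctctc

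The HOXA10 match, from 27179906 to 27179917 on chromosome 7, ends 45 bp upstream of the gene start at 27179861. It was 17 bp from the WT summit, 86 bp from the deletion summit and 139 bp from the rescue summit of the same site. It was also the 1 HOX match that passed a stricter form of the motif with A as the third letter, which 2.41% of all promoter windows held. The other matches lay far from summits. For HOXA11 the nearest summits were 5519 bp (WT), 5405 bp (deletion) and 5641 bp (rescue) away. For HOXD10 they were 2519, 2474 and 5333 bp away, and for HOXD1 47854, 47807 and 47942 bp. A match is a description of the letters and not of binding. Of the 27 windows, the HOXA10 window shown was the 1 that held a summit of any list.

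**Figure D1:**
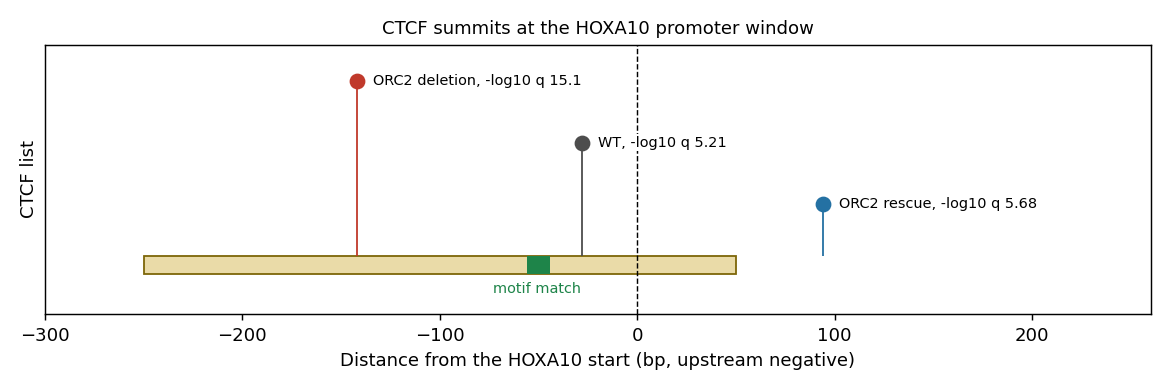
The HOXA10 promoter window (bar) by distance from the gene start in bp, upstream negative, with the motif match in green and the summit of each CTCF list as a point; point height only separates the lists. The WT and deletion summits fall inside the window, and the rescue summit lies 45 bp outside it.

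Summits in the 4 windows numbered 30 for WT, 36 for deletion and 29 for rescue. The ratio of deletion to WT was 1.20 (95% exact interval 0.719 to 2.02, which treats the counts as independent and covers counting error only), and over the whole lists it was 1.63. For rescue to WT it was 0.967 (0.56 to 1.67), and 1.09 over the whole lists. Both intervals include the ratio of the whole lists. Each list was also cut to its 19044 highest-valued summits, which makes the whole lists equal in number. The windows then held 30 WT, 27 deletion and 25 rescue summits. Deletion was then below WT, as rescue was in both counts. The IgG lists, with 17, 34 and 33 summits, had none in any HOX window, and on the same chromosomes the nearest lay 21542740 bp from a window. With so few IgG summits over the whole genome and 1320584 bp of windows, this absence says little about background at the HOX sites.

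By cluster, HOXA had 7 summits in WT, 7 in deletion and 6 after rescue, and HOXB had 13, 17 and 14. HOXC had 3, 4 and 5 summits, the fewest of the clusters in WT and deletion. HOXD had 7, 8 and 4. Between the outer HOX genes themselves, without the flanks, this came to 4.03 summits per 100 kb in WT, 4.42 in deletion and 4.23 after rescue. HOXA had the highest such density in WT and rescue (6.02 and 5.01 per 100 kb), HOXD in deletion (5.80), and HOXC the lowest in each list (2.56, 2.56 and 3.41).

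**Figure D2:**
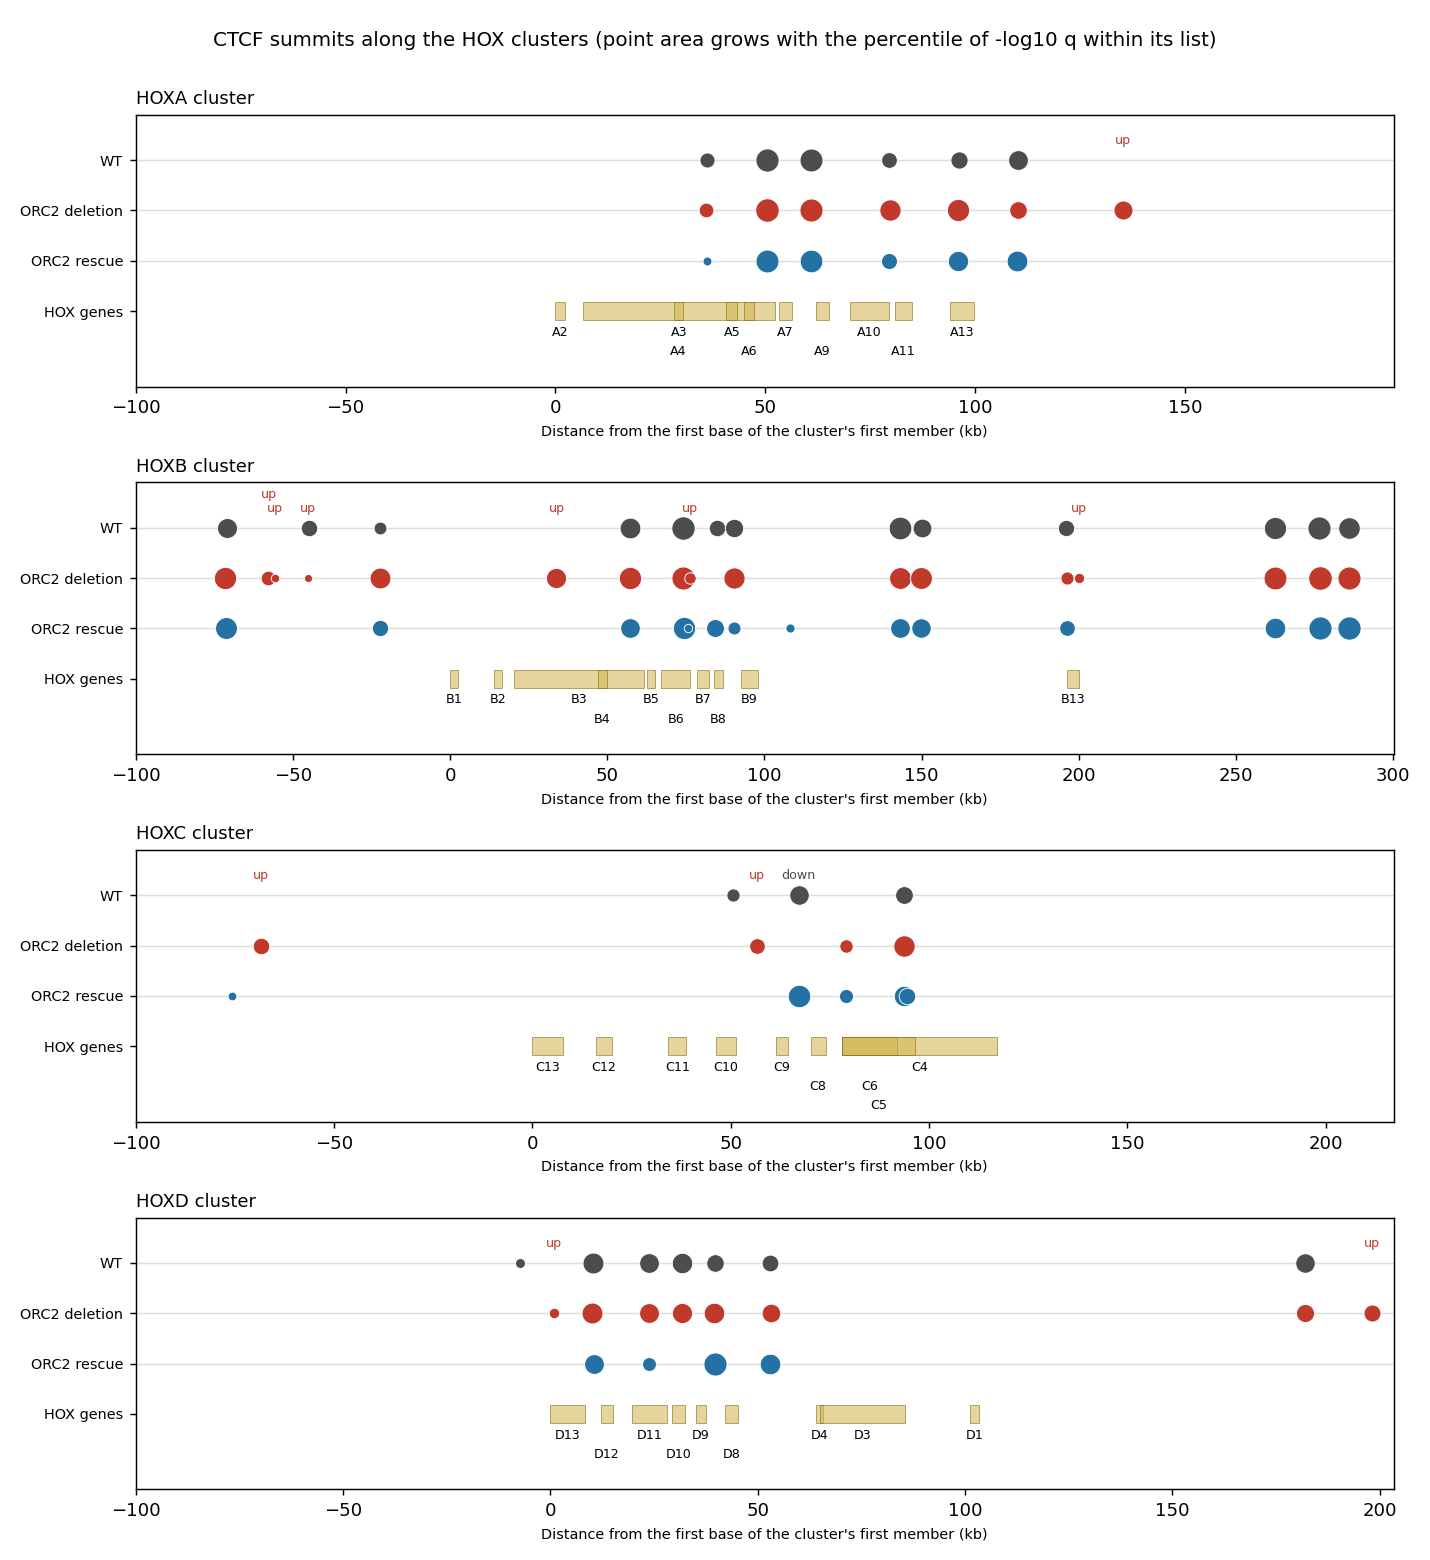
CTCF summits along the 4 windows, by distance in kb from the first base of each cluster's first listed gene; rows are the CTCF lists, points are sites (the highest summit per list), point area grows with the percentile of the value within its list, boxes are HOX genes, and "up" and "down" mark the authors' regions. Most of the large points line up over all 3 rows, and the lone points are mainly small.

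Of the 45 sites, 22 were present in all 3 lists, 48.9% (95% Wilson interval 35.0 to 63.0), against 40.6% of all 34769 sites. A further 11 were in the deletion list only, 24.4% (14.2 to 38.7), against 27.3% of all sites. WT only held 3 sites (6.67%, against 4.49% of all sites) and rescue only 4 (8.89%, against 5.0%). WT and deletion shared 2 sites without rescue (4.44%, against 8.43%). WT and rescue shared 2 without deletion, and deletion and rescue 1 without WT. That last class made up 2.22% of HOX sites (0.393 to 11.6) and 13.0% of all sites, and the WT and rescue class made up 4.44% (1.23 to 14.8) and 1.18%. Neighbouring sites are not independent, and these shares were not tested against each other.

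**Figure D3:**
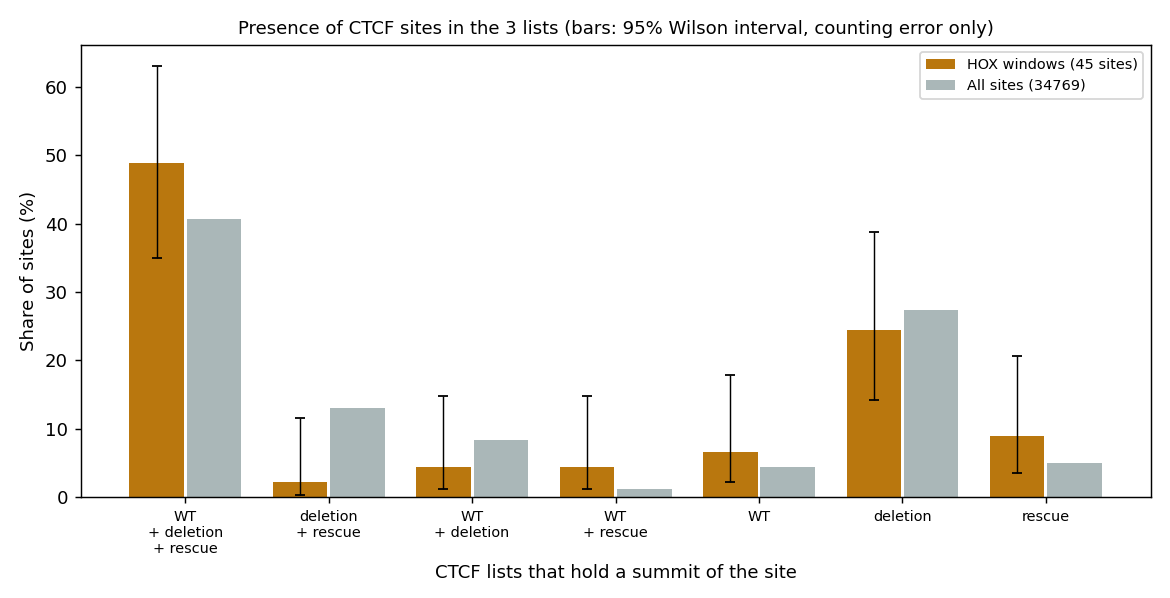
Share of sites (%) by the CTCF lists that hold them, for the 45 HOX sites and for all 34769 sites; error bars are 95% Wilson intervals and cover counting error only. Sites in all 3 lists form the largest class in both sets (48.9% and 40.6%), and sites in deletion only come next (24.4% and 27.3%).

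Taken summit by summit, 24 of the 30 WT summits (80.0%, 62.7 to 90.5) had a deletion summit within 500 bp, against 89.5% of all WT summits. A rescue summit was that near for 25 of 30 (83.3%, 66.4 to 92.7), against 76.2% of all WT summits. The share depended on the distance allowed: within 100 bp it was 50.0% for deletion and 50.0% for rescue. Over all WT summits it fell as well, to 60.6% for deletion and 51.1% for rescue. At the 22 sites present in all lists, the main summits of WT and deletion lay a median of 79.5 bp apart (1 to 602), those of WT and rescue 85.5 bp (19 to 256) and those of deletion and rescue 67.0 bp (2 to 386).

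With summits joined within 500 bp, HOXA was the most uniform cluster: its 5 sites between the outer genes, all on chromosome 7, were in every list. The site between HOXA4 and HOXA5, the HOXA10 site and the HOXA13 site spanned 428, 236 and 184 bp. Their presence in every list depends on that distance. No list had a summit in the stretch of 135739 bp from the lower end of the window to 27136093, which covers HOXA2, an anterior gene of the hindbrain, and HOXA4. The first site lay inside the long annotated span of HOXA3, between HOXA4 and HOXA5, and was weak. WT had 2 summits there, at 27136093 (3.13) and 27136521 (4.86, rank 12197). The deletion summit was at 27136289 (5.85, rank 20428) and the rescue summit at 27136447 (2.63, rank 19175).

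The next 2 sites were the strongest of HOXA in all lists. One lay inside HOXA3 and the antisense gene HOXA-AS3, between HOXA6 and HOXA7, both of which pattern the trunk. Its values were 20.5 in WT (27150863, rank 818), 39.4 in deletion (27150869, rank 603) and 18.9 after rescue (27150830, rank 1442). A RefSeq HOXA3 promoter window ends 38, 32 and 71 bp from these summits and held no match to the motif. The other lay between HOXA7 and HOXA9, 1124 bp from HOXA9, which is active in blood stem cells and leukaemia. There the values were 17.4 in WT (27161251, rank 1222), 27.0 in deletion (27161314, rank 1636) and 17.0 after rescue (27161316, rank 1890). At both sites each genotype's summit was in the first 10% of its own list.

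Of the posterior HOXA genes, HOXA10, a gene of uterine and limb development, had the promoter site shown above, with values of 5.21 in WT (27179889), 15.1 in deletion (27180003) and 5.68 after rescue (27179767). Its rank was 6368 in deletion and 11435 and 12193 in the other lists. The rescue summit falls inside the gene, 94 bp past its start. HOXA13, a gene of hindgut and distal limb, held a site at 6.10 in WT (27196395, rank 9683), 18.6 in deletion (27196272, rank 4194) and 9.56 after rescue (27196211, rank 6030). Beyond HOXA13, 10418 bp outside it and past HOTTIP, a noncoding gene of that end, a site had 8.29 in WT (27210509, rank 6262), 8.38 in deletion (27210513, rank 14930) and 10.5 after rescue (27210375, rank 5106). The last HOXA site, at 27235641, was in deletion only (10.3, rank 11863) and lay between HOTTIP and EVX1, a homeobox gene next to the cluster.

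HOXB, on chromosome 17, had 21 sites, 12 of them between the outer genes. Below HOXB1 there were 6 sites, of which 2 were in all lists. The furthest had 8.55 in WT (48457625, rank 5967), 19.3 in deletion (48457023, rank 3847) and 13.1 after rescue (48457409, rank 3320). Deletion-only summits at 48470778, 48472922 and 48483279 had values of 5.78, 2.80 and 2.58 (ranks 20630, 29044 and 29545). A WT-only summit stood at 48483787 (5.63, rank 10547), 508 bp from the last of these, so joining at a slightly greater distance makes them a single site of WT and deletion. The nearest to HOXB1 had 3.9 (48506374, rank 14430), 13.9 (48506218, rank 7454) and 5.90 (48506403, rank 11791).

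The anterior genes HOXB1 and HOXB2, which act in the hindbrain, had no summit within 10 kb in any list. Between 48506403 and 48585666 the rescue list had none, and WT had none between 48506374 and 48585727. Away from the sites that end this stretch, deletion had 1 summit in it, inside HOXB3 at 48562383 (12.2, rank 9323), and it was the highest-ranked of all the deletion-only HOX sites. A site further up inside HOXB3, between HOXB4 and HOXB5, was in every list, with 9.64 in WT (48585727, rank 4766), 19.2 in deletion (48585647, rank 3944) and 8.73 after rescue (48585666, rank 7071).

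The strongest site between the outer HOXB genes lay inside HOXB6 and the noncoding HOXB-AS3, 4445 bp from HOXB7. Its value was 24.8 in WT (48602787, rank 510), the highest of any WT summit in the 4 windows. Deletion had 26.9 (48602638, rank 1666) and rescue 14.6 (48602900, rank 2675). Weak single summits lay close by in HOXB6, at 48604283 in rescue only (2.44, rank 19598) and 679 bp from it at 48604962 in deletion only (3.94, rank 25608). A site inside HOXB8 was in WT (48613300, 5.63, rank 10540) and rescue (48612842, 7.09, rank 9520), and the nearest deletion summit was 5512 bp away. Between HOXB8 and HOXB9, WT had 6.96 (48618811, rank 8149), deletion 14.8 (48618812, rank 6621) and rescue 4.16 (48618728, rank 15643). The WT and deletion summits there were 1 bp apart.

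The long gap between HOXB9 and HOXB13 held a weak site in rescue only, at 48636828 (2.70, rank 19045), and sites within the noncoding gene LINC02086. The first of these had 15.7 in WT (48671683, rank 1619), 16.8 in deletion (48671645, rank 5180) and 8.84 after rescue (48671650, rank 6923). The other had 7.29 (48678557, rank 7610), 17.1 (48678443, rank 5022) and 8.56 (48678432, rank 7269). HOXB13, a gene of prostate and hindgut, had a site in all lists just below its lower end, inside PRAC2, with 5.51 in WT (48724480, rank 10819), 4.81 in deletion (48724663, rank 23244) and 5.48 after rescue (48724711, rank 12612). Inside HOXB13 itself there was a summit in deletion only, at 48728476 (3.47, rank 27101).

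Above HOXB13 the 3 sites were all inside TTLL6, which encodes a tubulin polyglutamylase, and were all in every list. The lowest had 13.0 in WT (48791097, rank 2487), 24.3 in deletion (48791086, rank 2197) and 10.1 after rescue (48791019, rank 5500). The middle one had 19.4 in WT (48805075, rank 936), 46.6 in deletion (48805154, rank 383) and 22.4 after rescue (48805167, rank 975). It was the highest-ranked HOX site of the deletion list. The uppermost, with 11.2 (WT, rank 3510), 26.8 (deletion, rank 1673) and 23.8, was the highest-ranked of the rescue list (48814480, rank 818).

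HOXC, on chromosome 12, had 8 sites, of which 1 was in all lists. Below HOXC13, weak single summits stood at 53863200 in rescue (2.53, rank 19326) and at 53870445 in deletion (7.27, rank 17098). The tail-end genes HOXC13, of hair and nail, HOXC12 and HOXC11 had no summit within 10 kb in any list. Going up from them, HOXC10 held a summit in WT only (53989329, 4.07, rank 14089), and the noncoding HOXC-AS2 held one in deletion only (53995579, 6.53, rank 18811), 6250 bp further on. The site between HOXC9 and HOXC8 had 8.02 in WT (54006019, rank 6584) and 15.6 in rescue (54006037, rank 2305). These summits were 18 bp apart, and the nearest deletion summit was 10440 bp away. It was the highest-ranked HOXC site of the WT and rescue lists.

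Near the shared annotated start of HOXC4, HOXC5 and HOXC6, deletion (54017865, 4.99, rank 22645) and rescue (54017823, 4.64, rank 14499) had a summit where the nearest WT summit was 11804 bp away. The HOXC site of all lists lay inside the spans of HOXC4 and HOXC5, with 6.49 in WT (54032667, rank 8973), 15.4 in deletion (54032634, rank 6168) and 9.82 after rescue (54032567, rank 5758). A second rescue summit followed at 54033306 (6.07, rank 11416), 644 bp before the miRNA gene MIR615 and 639 bp from the WT summit. From there to the upper end of the window, a stretch of 122724 bp that takes in the upper ends of HOXC5 and HOXC4 and the flank, no list had a summit.

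HOXD, on chromosome 2, had its sites between the outer genes on the side of the tail-end genes. EVX2, the neighbouring homeobox gene, held a summit in WT only (176080091, 2.75, rank 16874), and HOXD13 held one in deletion only (176088434, 3.52, rank 26928). All lists had a site between HOXD13 and HOXD12, another in HOXD11, another between HOXD9 and HOXD8, and a last between HOXD8 and HOXD4. Between HOXD13, a gene of digits and hindgut, and HOXD12, the values were 10.0 in WT (176097730, rank 4414), 14 in deletion (176097607, rank 7349) and 8.91 after rescue (176097986, rank 6827). In HOXD11 they were 8.24 (176111320, rank 6325), 11.5 (176111289, rank 10179) and 4.55 (176111347, rank 14678). HOXD10 held a site of WT (176119210, 9.17, rank 5239) and deletion (176119165, 12.1, rank 9370), and the nearest rescue summit was 7818 bp away.

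Between HOXD9 and HOXD8 the order of the lists was another. WT had 6.36 (176127120, rank 9214), deletion 13.2 (176127020, rank 8181) and rescue 22.1 (176127139, rank 1021). The site between HOXD8 and HOXD4 had 5.79 (176140569, rank 10249), 9.72 (176140616, rank 12685) and 10.1 (176140481, rank 5445). From there on no list had a summit for 128843 bp, a stretch that holds HOXD4, HOXD3 and HOXD1, the head-end genes of the cluster. In MTX2, a gene of the mitochondrial outer membrane on the other flank, WT and deletion shared a site (176269459, 8.02, rank 6584, and 176269516, 8.86, rank 14065). The nearest rescue summit was 28488 bp away. Deletion alone had a further one in MTX2 at 176285562 (7.76, rank 16158).

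**Figure D4:**
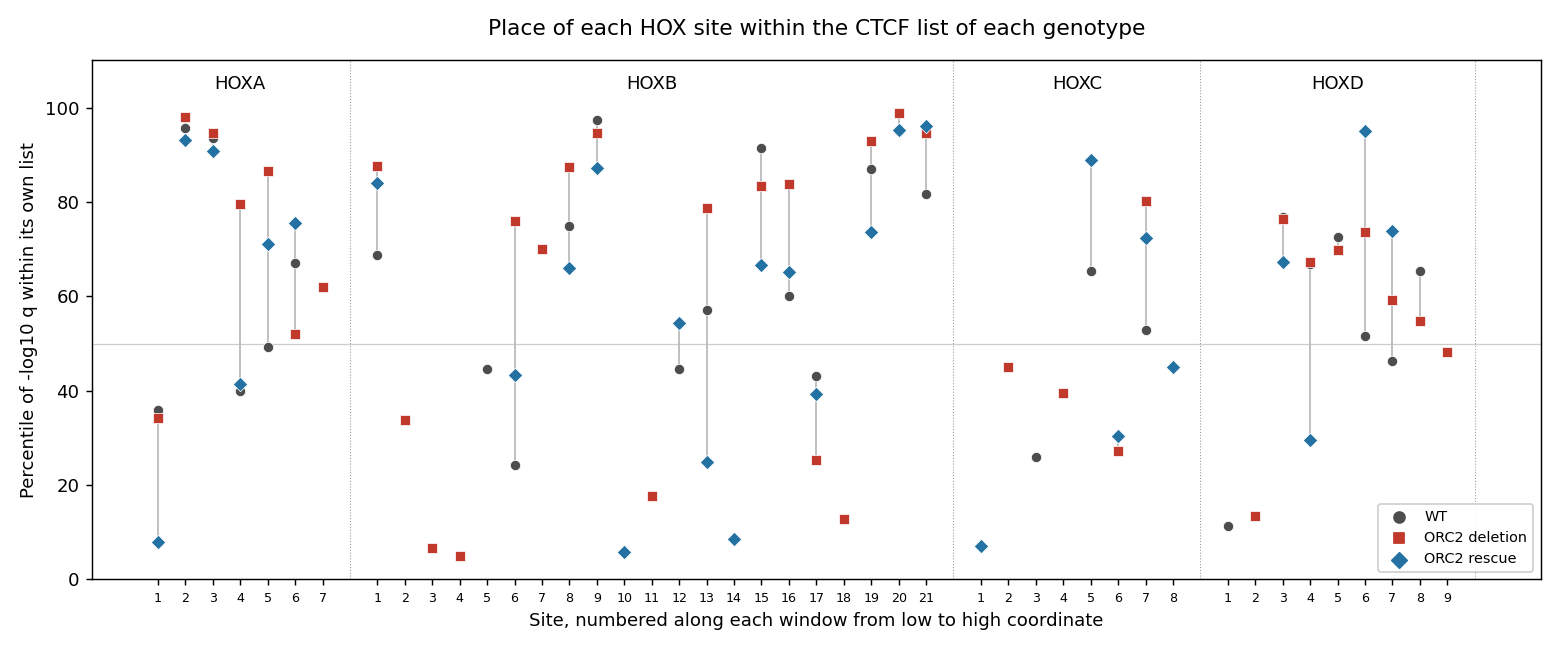
Percentile of the −log10 q of each HOX site within the CTCF list of each genotype (100 is the highest), sites numbered along each window from low to high coordinate; a grey line joins the lists that hold a site. HOXA sites 2 and 3 and HOXB sites 9 and 19 to 21 are at 73.6 or higher in every list, and most sites with a lone point lie under 50.

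Over all HOX summits the median percentile was 62.7 in WT (95% interval from order statistics 46.2 to 72.5), 70.0 in deletion (48.1 to 80.2) and 66.7 after rescue (41.4 to 75.5), where 50 is the middle of a list. In the first 10% of their list were 5 of 30 WT, 6 of 36 deletion and 5 of 29 rescue summits. The 22 sites of all lists had median values of 8.27 in WT, 16.1 in deletion and 9.69 after rescue, and over all sites of that class the medians were 7.30, 13.3 and 8.16. The 11 deletion-only HOX sites had a median of 5.78 (2.58 to 12.2), and all deletion-only sites one of 4.36. Of these 11, 5 (45.5%) were among the first 19044 of the deletion list, as many as the WT list has, against 22.9% of all 9502 deletion-only sites. A WT or rescue summit within 1 kb was absent for 9 of 11 (81.8%), against 97.8% of all deletion-only sites.

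Placed by rank among the 22 sites of all lists, the HOXB6 site was at place 1 in WT, 4 in deletion and 6 after rescue. The HOXA site between HOXA6 and HOXA7 was at places 2, 2 and 4, and that between HOXA7 and HOXA9 at places 4, 3 and 5. The middle TTLL6 site was at places 3, 1 and 2. The places differed most for the site between HOXD9 and HOXD8, at 16, 17 and 3. Next came the site beyond HOXA13, at 11, 20 and 8, that between HOXD8 and HOXD4, at 18, 19 and 9, and that in LINC02086 at 48671683, at 5, 11 and 14. With 1 list per genotype such differences cannot be set against a spread between replicates.

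The authors' deposited up list held 11 of the 45 HOX sites (24.4%), against 27.6% of all sites, and these were the 11 deletion-only sites. The authors' deposited down list held 1 of the 45, the site between HOXC9 and HOXC8, against 1.05% of all sites. Since the up sites were the deletion-only sites, their count restates presence in the lists. The down site likewise was one of WT and rescue, absent from deletion. Of the 11 up sites 6 were in HOXB (of its 21 sites), 2 in HOXC (of 8), 2 in HOXD (of 9) and 1 in HOXA (of 7). In the flanks lay 6 of the 11, where 16 of the 45 sites were. The up sites inside HOX genes were in HOXB3, HOXB6, HOXB13 and HOXD13. The HOXB8 site, present in WT and rescue and absent from deletion, was not in the down list, and its summits lay 458 bp apart.

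Of the 38 HOX genes, 14 held a summit in at least 1 list and 24 held none. The same count over all genes was not made. In every list a summit lay inside HOXA3, HOXA13, HOXB3, HOXB6, HOXC4, HOXC5 and HOXD11, 7 genes in all, though HOXC4 and HOXC5 share the same site. These 7 include the longest annotated spans, HOXA3 (45574 bp), HOXB3 (41372 bp) and HOXC4 (39143 bp), and also the shorter HOXA13 (5728 bp). The part played by length was not tested. Widened by 10 kb, 29 genes had a summit in WT (76.3%), 29 in deletion (76.3%) and 28 after rescue (73.7%). Over all 20037 protein-coding genes the shares were 50.3%, 63.5% and 51.8%. In all lists 28 HOX genes had one (73.7%, against 43.4% of protein-coding genes). Genes of a cluster lie close together and share sites, so these are not 28 separate observations. The gene with one in WT and deletion but none in rescue was HOXC10. Its WT and deletion summits belonged to different sites, 6250 bp apart. The 9 genes with none in any list (23.7%, against 33.1% of all protein-coding genes) were HOXA2, HOXB1, HOXB2, HOXC11, HOXC12, HOXC13, HOXD1, HOXD3 and HOXD4. For HOXD4 the nearest summits were just over that limit, at 10981, 10934 and 11069 bp, and they were furthest for HOXD1 in WT (48099 bp) and for HOXC13 in deletion (49035 bp) and rescue (59493 bp). The number of summits within 10 kb was equal in the 3 lists for 19 of 38 genes, the 9 without any included. An up site lay within 10 kb of 8 of the 38 genes (21.1%, against 30.4% of all protein-coding genes). A down site lay within 10 kb of 2 (5.26%, against 1.71%), HOXC8 and HOXC9, which share it.

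**Figure D5:**
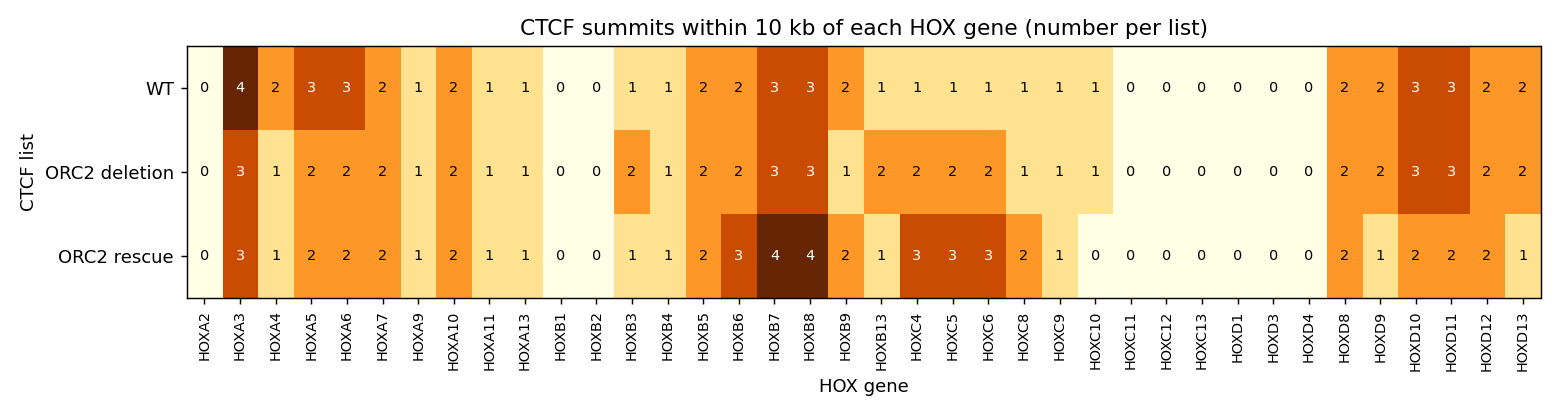
Number of CTCF summits within 10 kb of each of the 38 HOX genes, rows by CTCF list. The genes without a summit in any list are HOXA2, HOXB1 and HOXB2, HOXC11 to HOXC13, and HOXD1, HOXD3 and HOXD4.

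Other genes of the HOX system were counted the same way, by summits within 10 kb. Of 9 cofactor genes, which encode proteins that bind DNA together with HOX proteins, 4 had a summit in WT, 6 in deletion and 5 after rescue. These are 44.4%, 66.7% and 55.6%, against 50.3%, 63.5% and 51.8% of all 20037 protein-coding genes, so the shares lay near the background. MEIS2 and MEIS3 had 1 summit in each list, MEIS1 had 0, 1 and 0, and PKNOX2 had 5, 7 and 5. Up sites lay near 3 of the 9 (33.3%, against 30.4% of all protein-coding genes). Of 12 ParaHox genes and HOX regulators, 7 had a summit in WT, 9 in deletion and 7 after rescue, and 5 had an up site (41.7%). The shares with a summit were 58.3%, 75.0% and 58.3%. CDX2, a transcription factor of the intestine that acts on HOX genes, had 1, 2 and 1 summits, as did its relative CDX1. PDX1, a transcription factor of pancreas and duodenum, had 0, 1 and 0. RARB, a retinoic acid receptor, had 3, 7 and 3, and MEN1, a partner of the trithorax enzyme KMT2A, had 0, 2 and 0. RARA and RARG, the other retinoic acid receptors, had 3, 5 and 5 and 1, 2 and 2. KMT2A and CYP26A1, a retinoic acid-degrading enzyme, had 1 in each list, and CDX4, GSX1 and GSX2 had none. No gene of these lists had a down site.

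Of 22 noncoding and small genes of the clusters, 16 had a summit within 10 kb in WT, 15 in deletion and 15 after rescue. These are 72.7%, 68.2% and 68.2%, against 50.3%, 63.5% and 51.8% of all protein-coding genes. The 22 genes lie in the same clusters as the HOX genes and share sites with them, so they are not separate observations. HOTAIR, a noncoding RNA gene of HOXC, had none in any list, and neither did HOTAIRM1, HOXB-AS1, HAGLR and HAGLROS. Among the miRNA genes, MIR10A, MIR10B and MIR196B had 1 in each list. MIR196A2, between HOXC10 and HOXC9, had 1 in the WT and deletion lists but 0 in that of rescue, and MIR196A1 had 0, 0 and 1. Of 9 genes flanking the clusters, 7 had a summit in WT, 8 in deletion and 6 after rescue, and 7 had an up site (77.8%, against 30.4% of all protein-coding genes). The shares with a summit were 77.8%, 88.9% and 66.7%. The list holds long genes, such as SKAP1 (311620 bp) and SKAP2 (209821 bp). SKAP1, below HOXB, had 9, 12 and 9 summits, with 3 up sites and 1 down site. EVX1 had 0, 1 and 0, and LNPK, below HOXD, had none.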

How the data were processed

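The data are CTCF and IgG CUT&RUN of HCT116 p53-/- cells, 11 libraries in 6 groups. Per the submitters' processing notes, FastQC 0.11.5, Bowtie2 2.2.9, SAMtools 1.12 and MACS2 (no version) were used, with build hg38. How peaks were called, what was done with duplicates and whether IgG was the control is not given in the sources used here. Summits were deposited by the authors with a −log10 q each (lowest values just above the −log10 of 0.05), 1 list per genotype and antibody, taken as the pool of its replicates. The rescue IgG list is of 1 library. The authors' deposited up and down lists hold region starts and ends and no other values. Coordinates are 1-based.

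Summits of the 3 CTCF lists were joined by single linkage within 500 bp, and pairs of lists were matched within 500 bp, since the same site's summits shift between lists. Genes are RefSeq spans (GRCh38.p14), without exons or UTRs. All 38 members and the 52 other genes matched by symbol. A site belongs to the member that holds it, else to the pair it lies between. Sites are reported from low to high coordinate along each cluster, with the lists that lack them, and the 5 sites of each cluster with the best rank in any list come with their ranks. Members and lists were chosen with earlier results of these data known. Some genes are not reported here. The planned motif search at all sites was limited to RefSeq promoter windows, because no genome was used here.

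Alternatives were windows of 10 and 500 kb, distances of 100 bp and 1 kb, −log10 q of at least 5 or 10, equal list lengths, a stricter motif and a wider overlap with the authors' regions. Counting each promoter window once was added after seeing the data. Joining, matching, overlap and motif search were tested on simulated data and returned what had been made. The tools were pandas 2.3.3, NumPy 2.4.6, SciPy 1.17.1 and matplotlib 3.10.9, under Python 3.11.15.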

Additional observations from a re-analysis of the deposited data

How the results depend on the processing

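Of 63 values under alternative settings, 41 stayed within 1.5 times the main count or within the 95% interval and 22 moved. Depth is unknown, and with 1 list per genotype no alternative adds a replicate check. With windows of 500 kb, which hold more sequence, there were 97 WT, 130 deletion and 98 rescue summits. Of 150 sites, 74 were in all lists and 39 in deletion only, against 40.6% and 27.3% of all sites. The up list held 39 of the 150 and the down list 7, against 27.6% and 1.05% of all sites. With windows of 10 kb, WT had 22 summits, deletion 23 and rescue 22, and of 30 sites 5 were in deletion only and 5 were up. With −log10 q of at least 10, which keeps fewer summits, WT had 8, deletion 21 and rescue 11. Then 6 sites were in all lists, 11 of 24 were in deletion only, and 100% of the 8 WT summits had a deletion summit. Over the whole lists the median value was 6.18 in WT, 8.06 in deletion and 6.58 in rescue. A fixed cutoff therefore does not fall at the same place in each list, and shares over all sites at that cutoff were not computed. With −log10 q of at least 5, 7 of 34 sites were in deletion only. With lists of equal length 5 of 36 were, while the windows then held 30 WT, 27 deletion and 25 rescue summits. Deletion was then below WT, but the whole lists no longer differed in number. Joining within 100 bp split sites, giving 12 in all lists and 17 in deletion only of 61. Matching within 100 bp found 50.0% of the WT HOX summits in deletion and 50.0% in rescue, against 60.6% and 51.1% of all WT summits. The stricter motif was in 3.70% of HOX promoter windows. Motif windows of 100 and 50 bp around summits were not run, for lack of sequence. No paired analysis was possible because no summit list names a replicate, so a replicate could not be left out either.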
